A study of Sus scrofa with 2 samples.

Results

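The outermost 2 Mb of the pig autosomes were described from whole-genome bisulfite sequencing of longissimus dorsi, the long back muscle, in 2 female Tibetan pigs. The low-altitude pig lived under experimental conditions with a normal daily diet on the Chengdu plain, at about 500 m, and came from a Tibetan line raised in the lowland for generations. The high-altitude pig ranged freely on the Tibetan highland, at about 4000 m. Of 3 pigs per group in the study, 1 was sequenced for methylation, so altitude, feeding, housing, descent, individual and library cannot be told apart, and differences between the pigs have no replicate error. Members were the cytosines of chromosomes 1 to 18 that both libraries listed and that lay at a position of at most 2000000, or within 2000000 bp of the largest position listed for their chromosome. There were 181046 of them among 6397643 autosomal cytosines listed in both libraries and 7002043 in all, with 80780 in the first and 100266 in the last 2 Mb. The choice used position only.

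Bisulfite turns unmethylated cytosine into a base that is read as thymine, and the share of reads that still show cytosine is the methylation level. In mammals methylation sits mostly on cytosines followed by guanine (CpG), and most CpGs outside CpG islands are methylated in muscle as in other tissues. The DNA next to telomeres, the repeats that cap chromosomes, is often rich in genes, in CpG and in duplicated or tandemly repeated sequence, and copies that a genome assembly has merged gather the reads of all copies at a single place. In pigs, chromosomes 13 to 18 are acrocentric, with the centromere close to the start, whereas chromosomes 1 to 12 have arms on both sides. The largest listed position stands here for the end of a chromosome, and no telomere was identified. No gene, muscle marker or sequence could be set beside these positions, since the gene table at hand belongs to another assembly and no source used here names the build of the files.

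In all, 10104425 nuclear CpG cytosines with 95363149 reads were listed for the low-altitude pig, and 10441737 with 99955761 reads for the high-altitude pig, at a median of 8 reads per cytosine in both. A list holds only cytosines with at least 5 reads that the authors had called methylated. All levels therefore leave out CpGs without methylated calls, and densities are densities of listed cytosines.

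The listed cytosines of the chromosome ends had a mean methylation level slightly below that of the chromosome interiors in both pigs. The mean level of single cytosines in the outermost 2 Mb was 71.7% in the low-altitude pig and 72.2% in the high-altitude pig. In the interior, more than 2 Mb from both ends, it was 73.1% and 74.2% in the same order of pigs. The low minus high difference was −0.54 ± 0.049 points in the outermost 2 Mb (SE over cytosines) and −1.04 ± 0.0085 points in the interior. Such an SE describes the spread over cytosines of 2 libraries, which are not independent, and carries no information on other pigs. The ends were less alike than these means show, and the values below were therefore read per end and per step of 100 kb.

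Counted over ends, the lower mean was not general. Of 36 ends, 16 had a lower level than the interior of their own chromosome in the low-altitude pig and 16 in the high-altitude pig. The other 20 ends were above it in each pig. The median end lay 0.89 points above its interior in the low-altitude pig and 0.93 points above it in the high-altitude pig, while the mean over ends was −2.90 and −3.30 points. The level over ends was 70.3% ± 8.99 in the low-altitude pig and 70.9% ± 9.23 in the high-altitude pig (SD over 36 ends). Interior stretches of the same length had 72.9% ± 5.0 and 73.9% ± 5.01 (SD over 1178 stretches), so the ends were spread more widely than the interior in both pigs. No test of this spread was made, because ends of 1 genome in 2 libraries are not samples.

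**Figure D1:**
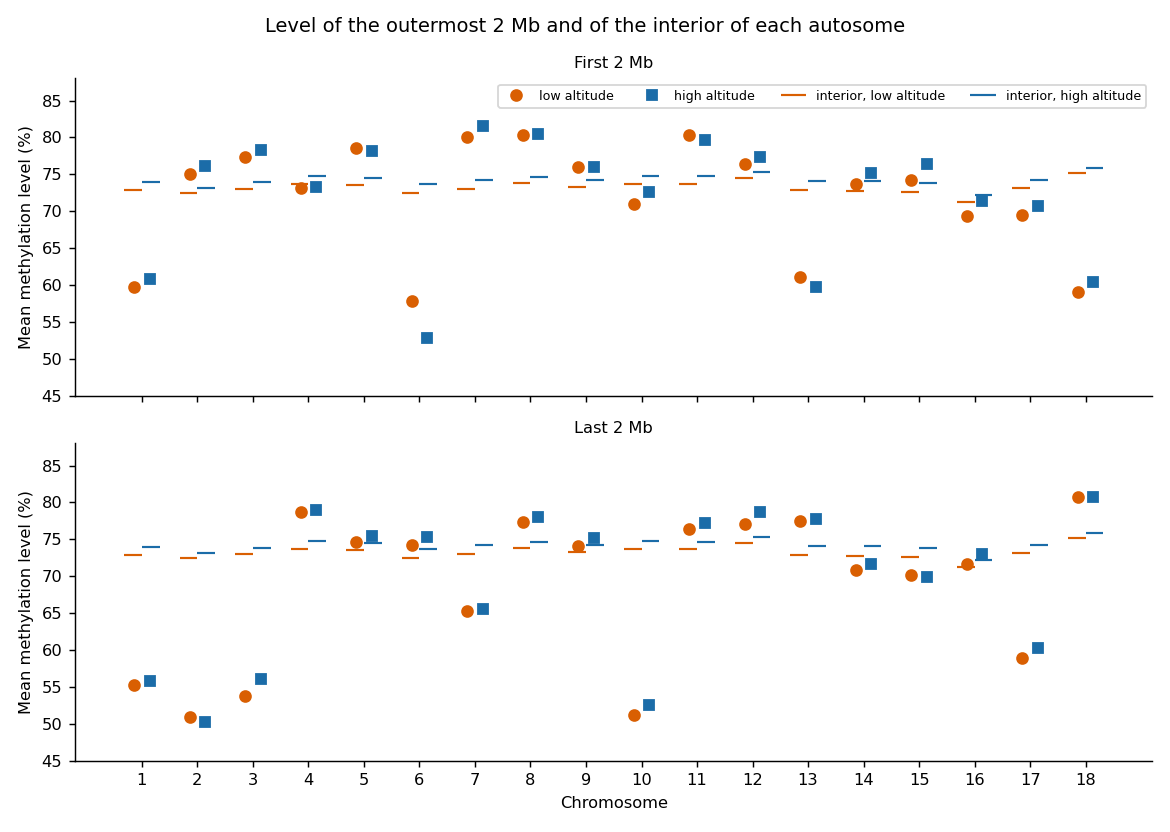
Mean methylation level in percent (y axis) of the first and the last 2 Mb of each autosome (x axis) in the low-altitude pig (circles) and the high-altitude pig (squares), with the interior of the same chromosome as short lines. Of the 36 ends, 9 lie below 62% in both pigs, and the 2 pigs lie close together at nearly every end.

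A group of 9 ends stood below the rest. These were the starts of chromosomes 1, 6, 13 and 18 and the last 2 Mb of chromosomes 1, 2, 3, 10 and 17, each under 62% in both pigs, a limit that was set after the levels were seen. They made up 25% of the ends, while 2.63% of interior stretches of 2 Mb were under 62% in both pigs. Together the 9 ends had 57.3% in the low-altitude and 57.1% in the high-altitude pig over 38932 cytosines, and 57.1% and 57.9% without the start of chromosome 6. The other 27 ends had 75.7% and 76.4% over 142114 cytosines, which is above the interior in both pigs. The limit took out the lowest ends but left the low stretches of the interior in, which favours such a result. Of the 27 ends, 20 were above the interior of their own chromosome in each pig.

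Among the lowest ends, the last 2 Mb of chromosome 2 had 50.9% in the low-altitude pig and 50.2% in the high-altitude pig. The last 2 Mb of chromosome 10 had 51.2% and 52.6%, and those of chromosome 3 had 53.8% and 56.1%. The start of chromosome 6 had 57.9% in the low-altitude pig and 52.9% in the high-altitude pig. At the other extreme, the start of chromosome 7 had 80.1% and 81.6%, the last 2 Mb of chromosome 18 had 80.8% in both pigs, the start of chromosome 8 had 80.4% and 80.5%, and the start of chromosome 11 had 80.3% and 79.6%. The 2 ends of a chromosome could differ widely. On chromosome 18 the start had 59.1% in the low-altitude and 60.4% in the high-altitude pig, more than 20 points below its last 2 Mb.

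From the tip inwards, the pooled level was lower in the outermost 400 kb than in the rest of the 2 Mb. In the first 400 kb of the chromosomes it was 64.5% in the low-altitude and 65.4% in the high-altitude pig, and from 400 kb to 2 Mb it was 73.1% and 73.2%. In the last 400 kb it was 64.9% and 65.7%, and from there to 2 Mb from the end it was 73.9% and 74.7%. By steps of 100 kb, the first 4 steps from the starts had 63.9, 66.1, 68.2 and 59.4% in the low-altitude pig and 64.7, 66.9, 69.2 and 60.3% in the high-altitude pig. The 4 steps next to the last positions had 62.3, 67.4, 62.7 and 68.6% in the low-altitude pig and 63.2, 67.8, 63.4 and 69.9% in the high-altitude pig. Further in, no step was below 70% in either pig, apart from the steps from 800 to 1000 kb of the starts, where chromosome 6 gave 3700 of the cytosines. These had 63.4 and 66.7% in the low-altitude pig and 59.1 and 65.2% in the high-altitude pig, and the step from 800 to 900 kb was the lowest from the starts in the high-altitude pig.

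**Figure D2:**
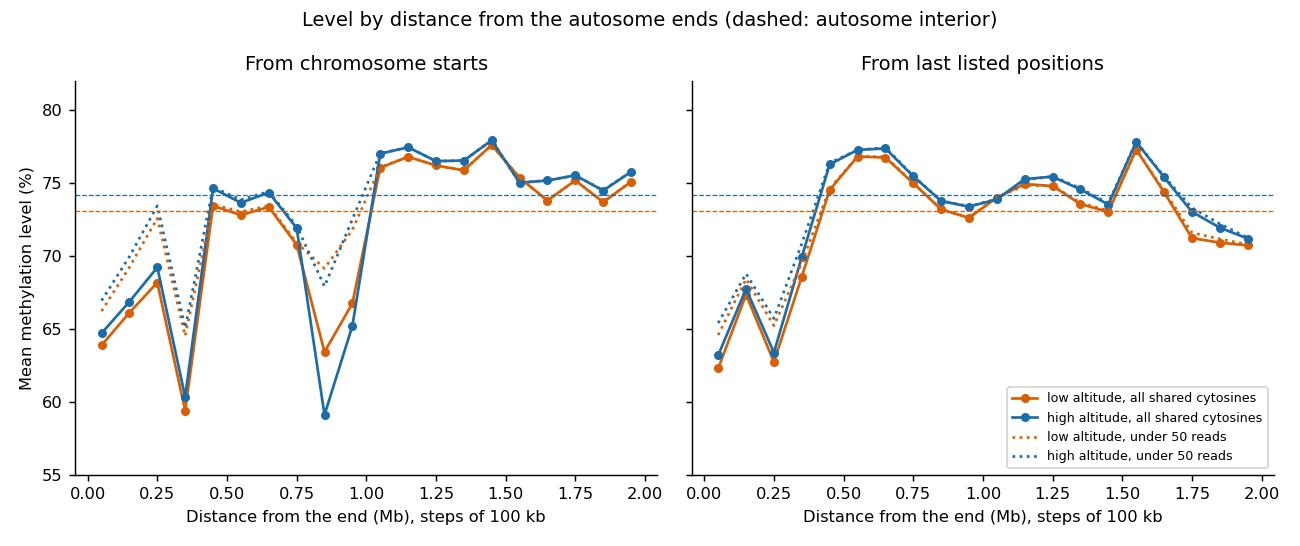
Mean level of the shared cytosines in percent (y axis) by distance from the end in Mb (x axis), in 20 steps of 100 kb from chromosome starts and from the last listed positions, for the low- and the high-altitude pig, with the interior as dashed lines and cytosines under 50 reads in both libraries as dotted lines. The outermost 4 steps lie between 59.4 and 69.9%, and the steps from 800 to 1000 kb of the starts dip again, less so without the deep cytosines.

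The outer dip was not shared by all ends. Only 20 of 36 ends in the low-altitude pig and 19 in the high-altitude pig had a lower level in their outermost 400 kb than in the next 1600 kb. The 9 low ends had 42.2% in the low-altitude and 43.7% in the high-altitude pig in their outermost 400 kb, against 64.3% and 63.3% further in. The other 27 ends had 75.5% and 76.1% in their outermost 400 kb and 75.7% and 76.5% further in. Pooled over these 27 ends, the outermost 400 kb lay within 1 point of the rest of the 2 Mb in both pigs, and 12 of the 27 were lower in them in each pig. The 9 ends had been set apart by their level over the whole 2 Mb, which includes the outermost 400 kb. That choice favours a dip in the 9 ends and its absence in the 27. The contrast between both groups is therefore a description and not a test. The values on both sides of the 2 Mb limit are given as a description. The steps just inside had 75.1% in the low-altitude and 75.8% in the high-altitude pig at the starts, and 70.7% and 71.2% at the last ends. The steps just outside had 73.0% and 74.3% at the starts, and 67.4% and 68.4% at the last ends.

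Sites of low methylation were more frequent towards the tips. In the outermost 400 kb, 8.61% of cytosines were below 20% in the low-altitude pig and 7.81% in the high-altitude pig. Over the whole 2 Mb this share was 3.79% and 3.86%, and in the interior 2.26% and 2.24%. At cytosines under 50 reads in both libraries it was 3.27% and 3.26% over the 2 Mb. Since only cytosines called methylated are listed, a low level is listed more easily where reads are many. In the outermost 400 kb, 8.55% of cytosines had 50 reads or more in either library, against 0.237% in the interior. The part of depth in these shares was not tested. The shares at 80% or more were 49.7% and 51.4% in the outermost 2 Mb and 50.2% and 52.6% in the interior, so highly methylated sites were nearly as frequent at the ends. Of 1 kb windows with at least 5 CpGs, 417 of 13186 (3.16%) at the ends had a level under 40% in both pigs, against 0.816% of interior windows, and 303 of the 417 lay in the outermost 400 kb.

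Several low ends were made of stretches of unlike level, called plateaus here, at the same places in both pigs. The first 200 kb of chromosome 1 had 35.1% in the low-altitude and 37.0% in the high-altitude pig over 1968 cytosines, and the remaining 1800 kb had 79.0% and 79.5%. At the start of chromosome 18 the steps from 200 to 500 kb had 33.9% and 35.9%, and those from 500 kb on had 73.5% and 74.2%. The last 300 kb of chromosome 17 had 41.2% and 42.4%, while the steps more than 400 kb from its end had 75.4% and 77.0%. The step between them is in neither value. On chromosome 10 the low stretch was longer. Its last 1300 kb had 30.7% in the low-altitude and 33.1% in the high-altitude pig, and the 700 kb before them had 70.4% and 70.8%. The low stretch was not even, with 27.5% and 30.1% in the last 400 kb and 36.3% and 38.7% in its other steps. The lowest step with at least 100 cytosines, from 78802068 to 78902067 on chromosome 10, had 23.8% in the low-altitude and 26.8% in the high-altitude pig over 238 cytosines.

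Other low ends changed level more than once or had no plateau. On chromosome 2 the outer 200 kb had 47.5% in the low-altitude and 51.8% in the high-altitude pig, the steps from 200 to 500 kb before the end had 77.6% and 80.04%, and the 1500 kb further in had 47.1% and 45.1%. The last 2 Mb of chromosome 1 held 5 neighbouring steps at 77.8% and 77.4% between stretches of 35.0% and 36.3% on the outer side and 31.7% and 33.0% on the inner side. On chromosome 13 the start stayed at intermediate levels, with 55.7% and 55.9% in its first 1100 kb and 68.6% and 65.0% in the following 900 kb.

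**Figure D3:**
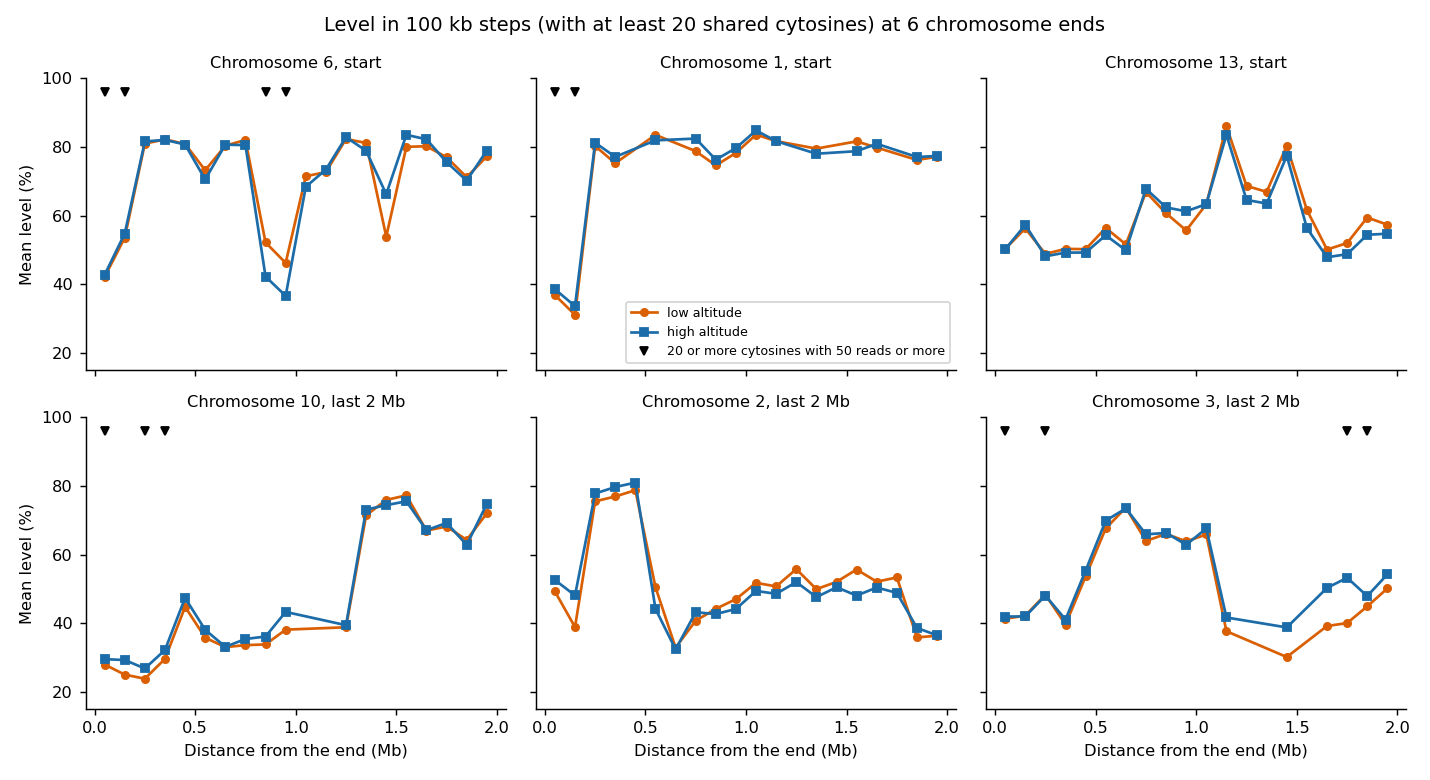
Mean level in percent (y axis) by distance from the end in Mb (x axis) at 6 of the 9 low ends, in 100 kb steps with at least 20 shared cytosines, for the low- and the high-altitude pig, with triangles over steps in which at least 20 cytosines had 50 reads or more. Levels jump between neighbouring steps at the same places in both pigs. The pigs part at 800 to 1000 kb of chromosome 6 and in the inner steps of chromosome 3. They also part in single steps of chromosome 2, in both directions, and from 1100 kb on at the start of chromosome 13.

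Mean read depth was higher at the low ends than at the other ends. Cytosines of the 9 low ends had a mean of 36.1 reads in the low-altitude and 32.8 reads in the high-altitude library. Without the start of chromosome 6, a comparison added after seeing the data, the other 8 low ends had a mean of 20.7 and 23.7 reads. Cytosines of the other 27 ends had 9.96 and 9.99 reads, and those of the interior 10.6 and 10.9 reads. The medians were closer, with 11 reads in both libraries at the 9 low ends, 8 at the other 27 ends and 9 in the interior. Cytosines with 50 reads or more in either library numbered 6454 at the ends, 3.56% of members, against 0.237% of interior cytosines. Although 2.83% of the shared autosomal cytosines were members, 30.4% of the autosomal cytosines with at least 50 reads and 41.0% of those with at least 200 reads were. Of these deep cytosines at the ends, 96.3% fell into 21 steps of 100 kb with at least 20 of them each, on 9 ends. These were not the same as the 9 low ends, since the low ends of chromosomes 2 and 13 had no such step. The steps from 800 to 1000 kb of chromosome 6 held 41.9% of the deep cytosines of the ends. At least 100 deep cytosines were present on 7 of the 9 low ends and on 1 of the other 27. The low ends of chromosome 2 and of the start of chromosome 13 had 27 and 1 of them, so not every low end was deep. In the last 2 Mb of chromosome 1, 117 of the 120 deep cytosines lay in a single step. That step had 79.3% in the low-altitude and 77.8% in the high-altitude pig, so depth did not go with the low level there. The deep cytosines had a level of 42.9% in the low-altitude and 39.5% in the high-altitude pig at the ends, and 42.4% and 44.2% in the interior.

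Without the deep cytosines the ends had 72.8% in the low-altitude and 73.4% in the high-altitude pig, and the interior 73.2% and 74.2%. The outermost 400 kb stayed lower than the steps further in, with 68.2% and 68.9% against 74.2% and 74.8% at the starts, and with 66.7% and 67.5% against 74.0% and 74.7% at the last ends. The part of depth in these values was not tested.

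Pooled over all ends, listed cytosines were about as dense as elsewhere but more clustered. Yet 23 of 36 ends were less dense than the interior of their own chromosome. The median end held 222 shared cytosines per 100 kb. The outermost 2 Mb held 251 shared cytosines per 100 kb, with 224 in the first and 279 in the last 2 Mb, and the interior held 261. Counting cytosines listed in either library, the ends had 108% of the interior density, against 96.2% for those listed in both. Neighbouring CpGs listed in both libraries lay a median of 58 bp apart at the ends and 139 bp apart in the interior. Along the 20 steps, the median over chromosomes ranged from 112 to 275 cytosines per step at the starts and from 115 to 279.5 at the last ends, without a steady trend. Single steps ranged from 0 to 2855, and 10 of 720 steps held none. The largest numbers were at the last 2 Mb of chromosomes 8, 4 and 9, with 11829, 10948 and 10937 cytosines, about 200%, 195% and 194% of the density of their interiors. The smallest were at the last 2 Mb of chromosome 1 with 1534, and at the starts of chromosomes 3 and 2 with 1854 and 2137. In the same order, these ends had 32.7%, 36.7% and 43.1% of the density of their interiors. The 3 densest ends were highly methylated, at 77.3, 78.7 and 74.1% in the low-altitude pig and 78.0, 79.0 and 75.2% in the high-altitude pig.

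The starts of chromosomes 13 to 18, next to the centromere, had a lower mean level than the starts of chromosomes 1 to 12, but the groups overlapped. The 6 starts of chromosomes 13 to 18 had 67.9% ± 6.35 in the low-altitude pig and 69.0% ± 7.24 in the high-altitude pig (SD over starts). The 12 starts of chromosomes 1 to 12 had 73.8% ± 7.59 and 73.9% ± 8.58. Of the first group, 4 of 6 lay below their interior in the low-altitude pig, and of the second, 4 of 12. The start of chromosome 14 had 73.7% in the low-altitude pig and that of chromosome 1 had 59.7%, so either group held starts above and below members of the other. The last 2 Mb of chromosomes 13 to 18, at the far end of the long arm, had 73.2% in the low-altitude and 73.7% in the high-altitude pig over all their cytosines, and those of chromosomes 1 to 12 had 71.8% and 72.6%.

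The comparison of the pigs asked whether the ends took part in the lower methylation of the low-altitude library. The low-altitude pig had the lower level at 30 of 36 ends, at 14 of 18 starts and at 16 of 18 last ends. The difference averaged −0.62 ± 1.28 points (SD over 36 ends), against −1.01 ± 0.89 points over 1178 interior stretches of 2 Mb. The medians were closer, at −0.93 points over ends and −1.05 points over interior stretches. Only 19 of 36 ends had a difference above that of their own interior, 7 of 18 starts and 12 of 18 last ends. At 16.7% of the ends and 9.51% of the interior stretches the low-altitude pig had the higher level. At most steps from either end the pooled difference was negative. It was positive only at 800 to 900 kb, at 4.32 points, at 900 to 1000 kb, at 1.54 points, and at 1500 to 1600 kb, at 0.34 points, of the starts, and at 1000 to 1100 kb of the last ends, at 0.12 points.

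**Figure D4:**
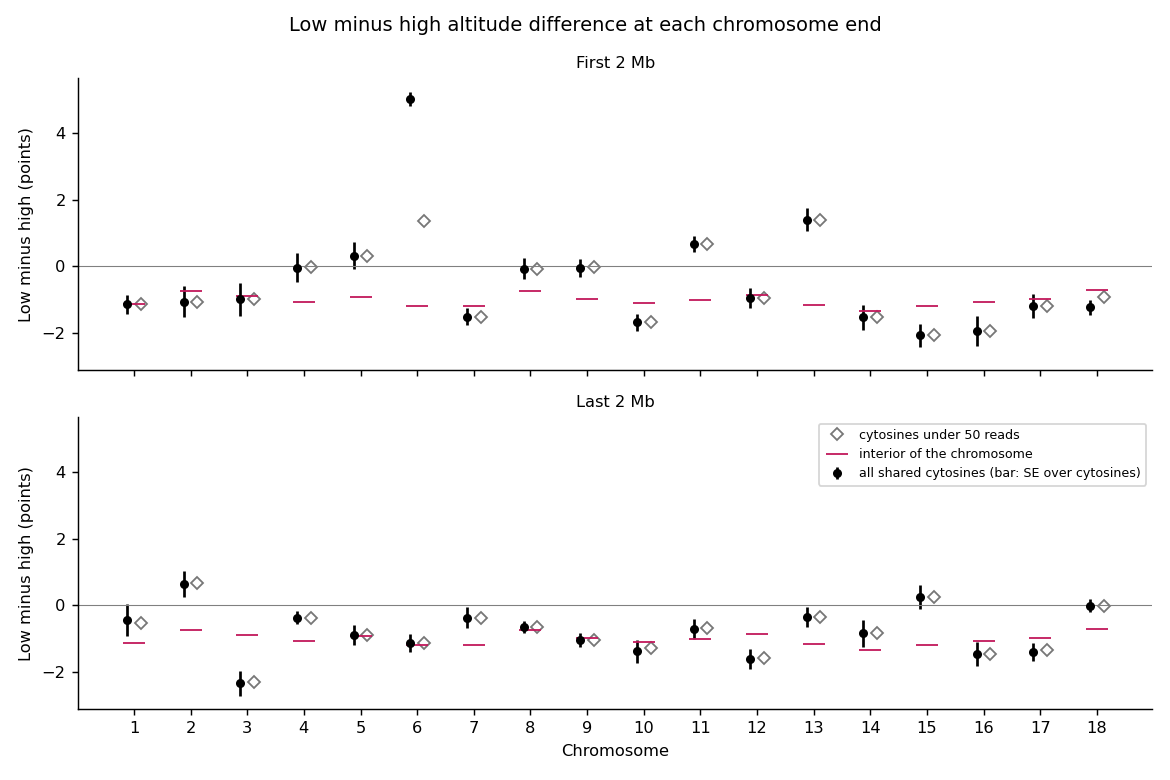
Low minus high difference in points (y axis) at the first and the last 2 Mb of each autosome (x axis), for all shared cytosines (filled, bars are the SE over cytosines), for cytosines under 50 reads (open) and for the interior of the chromosome (lines). The start of chromosome 6 stands apart at 5.04 points, and 30 of the 36 ends lie below 0.

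The start of chromosome 6 had the largest difference of all ends, 57.9% in the low-altitude and 52.9% in the high-altitude pig, or 5.04 ± 0.21 points over 6831 cytosines (SE over cytosines). The excess lay at 800 to 1000 kb, where 3700 cytosines had 50.8% in the low-altitude and 40.9% in the high-altitude pig, a difference of 9.87 ± 0.21 points. It was uneven over the stretch, since the 51 windows of 1 kb with at least 5 CpGs had a median difference of 3.34 points. Over reads the level there was 51.4% (95% Wilson interval 51.3 to 51.6, 654021 reads) in the low-altitude pig and 42.7% (42.5 to 42.8, 427268 reads) in the high-altitude pig. The intervals take reads as independent and cover counting error only. Mean depth in the same stretch was 177 reads in the low-altitude and 115 reads in the high-altitude library, 1.53 times as many, and its part in the difference was not tested. Within the stretch the difference was 2.57 ± 0.95 points at cytosines with 5 to 19 reads in the deeper library, 10.2 ± 0.70 points at 20 to 49 reads, 12.4 ± 0.25 points from 50 to under 200 reads and 9.10 ± 0.27 points at 200 or more. The other deep steps of this start, its first 200 kb, had a mean of 53.8 and 54.3 reads, and levels of 51.2% in the low-altitude and 52.3% in the high-altitude pig. Outside 800 to 1000 kb the start of chromosome 6 had 66.3% and 67.0%, or −0.68 points, beside −0.75 points over the cytosines of all other ends.

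The start of chromosome 6 weighed on the pooled values. Over all ends, the difference was −0.75 ± 0.050 points without it, against −0.54 points with it. Over summed reads, the level of the ends was 61.5% in the low-altitude and 60.9% in the high-altitude pig, a difference of 0.57 points, opposite in sign to that over cytosines. Without the start of chromosome 6 it was still positive, at 65.0% and 64.8%, or 0.24 points. Yet neither part of these ends was positive by itself over summed reads. The other 8 low ends differed by −0.42 points and the other 27 ends by −0.77 points. The 8 low ends held 663011 reads of the low-altitude and 760028 reads of the high-altitude library. The pooled sign thus also reflects how reads were spread over low and other ends. Deep cytosines of the ends differed by 3.42 ± 0.14 points. Without those at 800 to 1000 kb of chromosome 6 they had 37.9% in the low-altitude and 40.02% in the high-altitude pig, a difference of −2.12 ± 0.15 points, on the same side as deep cytosines of the interior at −1.86 ± 0.081 points. At ordinary depth the ends differed less than the interior in each class. The differences were −0.76, −0.58 and −0.78 points at the ends and −1.07, −1.02 and −1.001 points in the interior, for cytosines with 5 to 9, 10 to 19 and 20 to 49 reads in the deeper library.

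**Figure D5:**
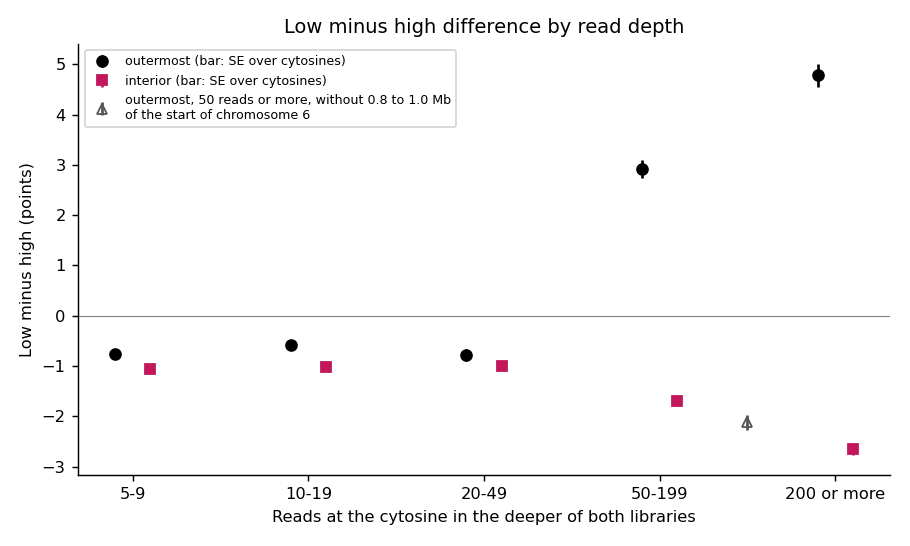
Low minus high difference in points (y axis) by the number of reads at the cytosine in the deeper of both libraries (x axis), for the outermost 2 Mb (circles) and the interior (squares), with bars for the SE over cytosines. The ends lie between −0.78 and −0.58 points up to 49 reads and above 0 from 50 reads on, but at −2.12 points when the stretch on chromosome 6 is left out (triangle, drawn between both deep classes).

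Next among the 6 ends with positive differences came the start of chromosome 13, with 61.1% in the low-altitude and 59.7% in the high-altitude pig, 1.40 ± 0.35 points apart. Its excess lay in the steps from 1100 kb to 2 Mb, at 3.59 ± 0.52 points, while its first 1100 kb differed by −0.17 ± 0.46 points. From 1100 kb to 2 Mb the mean depth was 10.4 reads in the low-altitude library, 0.991 times that of the high-altitude library. At the start of chromosome 11 the levels were 80.3% and 79.6%, with 0.67 ± 0.24 points between them. The last 2 Mb of chromosome 2 differed by 0.64 ± 0.38 points over 2823 cytosines. Its inner 1500 kb had the higher level in the low-altitude pig and its outer 200 kb the lower one.

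The largest differences in the other direction were smaller in size than that of chromosome 6. The last 2 Mb of chromosome 3 had 53.8% in the low-altitude and 56.1% in the high-altitude pig, −2.34 ± 0.37 points. It lay mainly from 1100 kb to 2 Mb before the end, with 43.1% and 49.7%, where the low-altitude library was 1.31 times as deep, and the part of depth was not tested. At the start of chromosome 15 the levels were 74.3% and 76.3%, −2.08 ± 0.34 points, the start of chromosome 16 had 69.4% and 71.4%, −1.95 ± 0.45 points, and the start of chromosome 10 had 71.0% and 72.6%, −1.68 ± 0.26 points. A level lower by 2 points or more in the low-altitude pig was present at 2 of 36 ends (5.56%) and in 10.95% of interior stretches.

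In steps of 100 kb with at least 100 shared cytosines, 531 in number, 337 (63.5%) had a lower level in the low-altitude pig, against 71.5% of all 21120 autosomal bins. A difference of at least 5 points was present in 28 steps (5.27%), against 3.04% of all autosomal bins. The low-altitude pig was lower in 20 of them and higher in 8, or 3.77% and 1.51%, against 2.49% and 0.554% of all bins. Bins with few cytosines pass such a limit more easily, and the median number of cytosines was 253 at the ends and 287 in the interior. Among bins of 100 to under 200 cytosines the share was 9.50% at the ends and 5.77% in the interior, among those of 200 to under 300 it was 4.90% and 2.87%, and among those of 400 or more it was 2.36% and 1.04%. Among bins of 300 to under 400 cytosines it was 1.22% (1 of 82) at the ends and 1.85% in the interior. The share was thus higher at the ends in 3 of the 4 classes. In the class of 400 or more, however, only 3 steps of the ends passed the limit, 2 upwards and 1 downwards. Those 2 were the deep steps of chromosome 6, from 800001 to 900000 and from 900001 to 1000000. The higher share of this class therefore hangs on a single stretch, and it was not computed without that stretch. The levels of both pigs had a correlation of 0.98 across the 531 steps and 0.963 across interior bins, as a description of 2 libraries.

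The largest positive differences among these steps were the neighbouring ones on chromosome 6, from 800001 to 900000 with 52.1% in the low-altitude and 42.2% in the high-altitude pig, and from 900001 to 1000000 with 46.2% and 36.5%. The step from 1900001 to 2000000 on chromosome 9 had 56.3% and 46.8%, differing by 9.47 ± 2.53 points over 121 cytosines. That from 160968369 to 161068368 on chromosome 2 had 55.6% and 48.0%, 7.60 ± 2.21 points. The largest negative difference was on chromosome 3, from 142987060 to 143087059, with 40.01% in the low-altitude and 53.2% in the high-altitude pig, −13.2 ± 1.39 points over 249 cytosines. Its mean depth was 24.8 reads in the low-altitude and 26.2 reads in the high-altitude library. The step from 87384353 to 87484352 of chromosome 11 had 55.1% and 62.2%, −7.16 ± 1.83 points. The first 100 kb of chromosome 3 had 74.3% and 81.2%, and the step from 800001 to 900000 on chromosome 2 had 74.9% and 81.7%, both with at most 9.34 reads per cytosine.

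Local differences were sought in 1 kb windows with at least 5 CpGs, by the two-sided Fisher's exact test on summed reads with Benjamini-Hochberg adjustment over all 462691 nuclear windows. Calls needed an adjusted p under 0.05 together with 20 points or more between the pigs. The test compares 2 libraries and not 2 altitudes, and since reads of neighbouring CpGs are not independent its p-values are too small. Of 13186 windows at the ends, 66 (0.501%) were called, against 0.494% of all windows. The low-altitude pig was lower in 45 of them (0.341%) and higher in 21 (0.159%), against 0.306% and 0.188% of all windows. The called share at the ends was thus close to that of the whole genome. Calls were made on 28 of 36 ends, with at most 6 on an end, among 595 windows at the start of chromosome 10. The start of chromosome 16 had 4 among 177 windows and the last 2 Mb of chromosome 3 had 5 among 240, which are larger shares. The stretch from 800 to 1000 kb of chromosome 6 had 1 call among 51 windows.

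Of the called windows, 18 held at least 10 CpGs. They were 0.452% of the 3979 such windows at the ends, against 0.539% in the interior. When only such windows were tested and adjusted, 26 were called, but those named below are from the 18. The deepest loss, in the window from 156523001 to 156524000 of chromosome 6, was to 56.3% (45 methylated of 80 reads) in the low-altitude pig, against 90.8% (59 of 65) in the high-altitude pig, with an adjusted p of 0.00249 by Fisher's exact test. A single neighbour was tested within 3 kb and had 69.8% and 85.6%, a difference of the same sign. The window from 68409001 to 68410000 on chromosome 17 had 53.5% over 71 reads in the low-altitude pig and 83.7% over 86 reads in the high-altitude pig, and its neighbour had 74.7% and 81.4%. That from 143409001 to 143410000 on chromosome 4 had 64.5% over 110 reads and 89.8% over 137 reads, while its neighbour differed in the other direction, with 68.8% and 60.8%. The call on chromosome 6 from 951001 to 952000 had 48.1% (154 reads) and 73.2% (257 reads), and ran against its 3 neighbours, which had 43.0% and 37.2%, and against the higher level of the low-altitude pig in the stretch around it.

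The greatest gain, in the window from 86437001 to 86438000 of chromosome 11, was to 64.3% (92 methylated of 143 reads) in the low-altitude pig, against 29.3% (43 of 147) in the high-altitude pig, with an adjusted p of 1.09e-05 by Fisher's exact test. Its 2 neighbours had 65.4% and 56.1%. The window from 218101001 to 218102000 on chromosome 13 had 91.5% over 142 reads in the low-altitude pig and 62.8% over 121 reads in the high-altitude pig. A window of chromosome 4, from 142892001 to 142893000, had 84.2% over 146 reads and 61.8% over 102 reads, and its 3 neighbours had 87.3% and 86.3%. Near the tip of chromosome 9, from 81001 to 82000, the window had 45.8% over 144 reads and 23.7% over 114 reads, next to a window with 82.2% and 89.1%. The neighbours of the chromosome 4 window differed in the same direction but by far less. The neighbour of the chromosome 9 window differed in the other direction.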

How the data were processed

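Per the labels' protocols, muscle DNA with added lambda DNA was sonicated, ligated to methylated adapters, bisulfite-converted and read on an Illumina sequencer. The submitters' processing notes name Bismark 0.12.5. Build, read filters and duplicate handling were not given in the sources used here. Per the file headers, the deposited columns are counts of methylated and unmethylated reads, the level written as a fraction, and the authors' p-value before and after correction. From the counts, levels were computed as methylated over all reads, without correction for non-conversion, and averaged over cytosines listed in both libraries. Mitochondrial cytosines were left out.

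Distances were taken from position 1 and from the largest listed position. Fisher's exact test was run on reads of 1 kb windows, with the strands of a CpG joined, and was tested on simulated data. Ends, bins and windows were named by their extremes of level, difference and number of cytosines, with bins of at least 100 cytosines and called windows of at least 10 CpGs. The members and lists were chosen with earlier results of these data known, and the low ends, plateaus and depth limit of 50 reads after their values were seen. Levels of single cytosines rest on few reads, so single sites are not reported. Python 3.11.15, numpy 2.4.6, pandas 2.3.3, scipy 1.17.1 and numba 0.67.0 were used.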

Additional observations from a re-analysis of the deposited data

How the results depend on the processing

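As reported, the ends minus the interior were −1.41 points in the low-altitude and −1.92 points in the high-altitude pig, and both stayed negative under each setting below, while low minus high at the ends was −0.54 points and turned positive over summed reads only. Over summed reads the level of the ends was 61.5% in the low-altitude and 60.9% in the high-altitude pig, the ends minus the interior −9.98 and −11.5 points, and low minus high 0.57 points. With at least 10 reads in each library the level of the ends was 65.4% in the low-altitude and 65.6% in the high-altitude pig, the ends minus the interior −6.48 and −7.32 points, and low minus high −0.16 points. With at most 200 reads the level of the ends was 71.9% in the low-altitude and 72.5% in the high-altitude pig, the ends minus the interior −1.18 and −1.63 points, and low minus high −0.59 points. In the outermost 1 Mb the level of the ends was 69.0% in the low-altitude and 69.4% in the high-altitude pig, the ends minus the interior −4.11 and −4.75 points, and low minus high −0.40 points. In the outermost 3 Mb the level of the ends was 71.0% in the low-altitude and 71.8% in the high-altitude pig, the ends minus the interior −2.15 and −2.42 points, and low minus high −0.77 points. With ends weighted equally the level of the ends was 70.3% in the low-altitude and 70.9% in the high-altitude pig, the ends minus the interior −2.90 and −3.30 points, and low minus high −0.62 points. Under 50 reads, a setting chosen after seeing the data, the level of the ends was 72.8% in the low-altitude and 73.4% in the high-altitude pig, the ends minus the interior −0.42 and −0.78 points, and low minus high −0.68 points. Without the start of chromosome 6, likewise chosen later, the level of the ends was 72.2% in the low-altitude and 73.0% in the high-altitude pig, the ends minus the interior −0.87 and −1.16 points, and low minus high −0.75 points. The deposited level in place of read counts moved none of these values beyond its counting interval. The starts of chromosomes 13 to 18 minus those of 1 to 12, over cytosines, were −6.45 points in the low-altitude and −5.33 points in the high-altitude pig, −6.74 and −6.25 points under 50 reads, and −8.60 and −8.18 points without the start of chromosome 6. The density of the ends was 96.2% of that of the interior, 98.9% with strands joined, 108% for cytosines in either list and 99.3% in the outermost 3 Mb. Called windows numbered 36 when CpGs needed at least 10 reads, 26 when windows needed at least 10 CpGs, 21 at a difference of at least 30 points and 33 in the outermost 1 Mb, and the called share stayed near that of all windows, at 0.958%, 0.653%, 0.159% and 0.517% against 0.99%, 0.683%, 0.193% and 0.494%. Steps that differed by at least 5 points numbered 28, and 4 with at least 300 cytosines per step and 9 with at least 10 reads in each library, among 209 and 164 steps, or 1.91% and 5.49% against 1.56% and 4.52% of all autosomal bins. No paired analysis was possible because each group has 1 pig, and no replicate could be left out. With a median of 9 reads per member, depth limits single sites, and the lists cannot show CpGs without methylated calls. The cause of these shifts was not tested.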

Other observations

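The ends were shared less between the lists than the interior. Of the cytosines listed in the outermost 2 Mb, 62.9% of the low-altitude and 63.4% of the high-altitude list were in both lists, against 69.5% and 67.3% in the interior. The low-altitude library listed 1.01 times as many cytosines as the high-altitude library at the ends and 0.967 times as many in the interior. Cytosines of the ends that were in a single list had 73.9% in the low-altitude and 74.0% in the high-altitude library, with a median of 6 reads in both, and their levels were not compared between the pigs.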
